A study of Mus musculus with 6 samples.

Results

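The 6 glypican genes, Gpc1 to Gpc6, and Reck encode cell surface proteins that GDE2 can release, and their RNA was followed here in spinal cord with and without GDE2. The members were taken by gene name from the GENCODE annotation of the mouse, and they are 7 of 55536 annotated genes. Of the 7, 6 passed the filter on low values and were among the 12894 genes tested, and Gpc2 did not pass. The wild-type (WT) group held 3 libraries from C57BL/6 mice aged 5 weeks, and the Gde2KO group held 3 libraries from mice of the same background and age lacking GDE2, which Gdpd5 encodes. All 6 were poly-A RNA sequencing libraries of the ventral part of the lumbar cord, given no treatment in the labels. The labels do not say how the Gde2KO allele was made, which cells had lost the enzyme, or the sex of the mice. They also do not say whether replicates were separate animals, so the p-values measure the spread between these libraries, which may be technical. The sex-linked genes given below differ within the Gde2KO group, so Gde2KO replicate 1 was not from the same animal as replicates 2 and 3. The series asks how GDE2 bears on Wnt signalling in neurons and on the maturation of oligodendrocytes.

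Glypicans are proteins held on the outer face of the cell membrane by a glycosylphosphatidylinositol (GPI) anchor, and they carry heparan sulfate chains that bind growth factors, morphogens and synaptic receptors. Reck is a GPI-anchored inhibitor of matrix metalloproteases and of Adam10, and in brain endothelium it works with the receptor Adgra2 in the response to Wnt7 ligands. GDE2 cuts the GPI anchor at the cell surface and so frees these proteins from the membrane. RNA levels as measured here do not record how much protein is on the membrane or released. In whole tissue, fewer cells of a type and less RNA per cell cannot be told apart.

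Levels are in FPKM, a measure of fragments set against transcript length and library size, averaged over a gene's counted bases and scaled between libraries. Each library held 31899 to 33791 assembled transcripts, and its depth relative to the average ran from 0.910 to 1.14. Values are given in the order of the replicate numbers. Gdpd5 reached 5.38, 6.54 and 5.95 FPKM in the WT libraries and 1.24, 1.197 and 0.946 in the Gde2KO libraries. It was lower in every Gde2KO library, with a fold of 0.202 (95% interval 0.162 to 0.253, limma adjusted p = 0.00526). All 12 astrocyte, 10 microglia and 10 motor neuron markers had a mean of at least 1 FPKM, and 6 of 8 skeletal muscle markers had no base assembled in 3 or more libraries. Such genes have no counted base and were looked up over the bases assembled in any library, where 4 of these 6 were at 0 in all libraries. By the same wider measure Gde2KO replicate 1 alone held the Y-linked gene Ddx3y, at 21.7 FPKM, and had Xist listed at 0. That library was also low in fibroblast markers. Dorsal horn and sensory ganglion markers stood at a mean log2 deviation from WT of 0.78 in it, and of -0.11 and -0.54 in Gde2KO replicates 2 and 3. Their sums were 705, 693 and 612 FPKM in these 3 libraries. Ependymal markers stood at mean log2 deviations of -1.11, -1.06 and -0.19 in the Gde2KO libraries, with sums inside the WT range. WT replicate 1 also differed from the rest. Its dorsal horn and sensory ganglion markers summed to 239 FPKM against 612 to 705 in the other 5 libraries. Their mean log2 deviation from WT was -0.03, so the list was low there by the sum and not by this measure. Its mature oligodendrocyte markers stood at a mean log2 deviation of -0.32 from WT against 0.05 to 0.19.

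No member changed between the genotypes by the test. Of the 6 members tested, 0 passed limma with Benjamini-Hochberg adjustment at 0.05, where 0.116% of all genes tested passed, and 0 had an unadjusted limma p under 0.05, where 3.91% did. Limma was the only tool used. The members' log2 differences, Gde2KO minus WT, were split between 3 above and 3 below 0, with a median of -0.04 against 0.00 over all genes tested. In 2 members the groups did not overlap, Gpc1 higher and Reck lower in Gde2KO. Over all genes tested 10.9% did not overlap, 5.06% with Gde2KO higher and 5.79% with Gde2KO lower. The median 95% interval reached 0.28 to either side on the log2 scale over all genes, and 0.34 for genes with a mean of 1 to 5 FPKM, the range of Gpc3, Gpc4, Gpc6 and Reck. These medians describe the precision of 3 libraries a group, and each member's own interval is given with its fold.

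**Figure D1:**
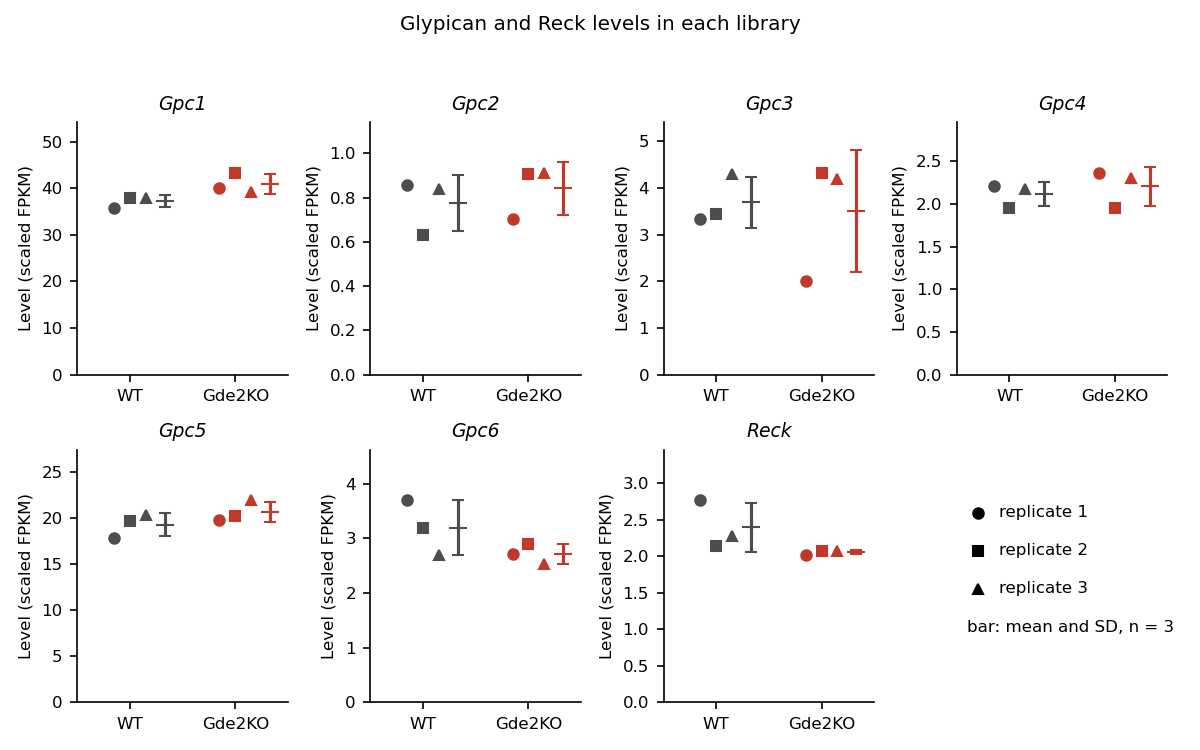
Level of each gene (scaled FPKM, axes from 0) in the 3 WT and 3 Gde2KO libraries, with symbols for the replicate and bars for the mean and SD (n = 3). The groups separate only for Gpc1 and Reck, and in the Gpc3 panel Gde2KO replicate 1 sits at 2.001, below the other 5 libraries.

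The members differed from each other far more than the genotypes did. The values are per length, but each averages over that gene's own counted bases, which for Gpc2 were 207. The order given here is by this measure. In order of the mean over 6 libraries they ran Gpc1 (39.1 FPKM), Gpc5 (20.0), Gpc3 (3.60), Gpc6 (2.95), Reck (2.22), Gpc4 (2.16) and Gpc2 (0.808). Gpc1 and Gpc5 together made up 80.7% to 85.9% of the summed level of the 7 genes in each library. Gpc1 stood above Gpc5 in 6 of 6 libraries, at 1.95 times its mean, and Gpc5 above Gpc3 in 6 of 6, at 5.56 times. Gpc6 was above Reck, and Gpc4 above Gpc2, in 6 of 6 libraries. These 2 orders depended on the measure. By deposited FPKM summed over transcripts, in which pieces add up, Gpc2 was above Gpc4 in Gde2KO replicate 2 (4.15 against 1.93). By the same sums Reck was above Gpc6 in WT replicate 1 (5.48 against 3.89) and Gde2KO replicate 1 (4.72 against 2.70). In the other libraries the sums kept both orders. Gpc3 and Gpc6, which held their order in 4 of 6 libraries, and Reck and Gpc4, also 4 of 6, did not differ beyond their spread.

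Gpc1 (ENSMUSG00000034220.7; chromosome 1, 92831645 to 92860779, plus strand, GRCm38) encodes the glypican known from neurons and their axons, where it binds fibroblast growth factors and Slit proteins. It measured 35.7, 38.0 and 38.0 FPKM in the WT libraries and 40.0, 43.4 and 39.3 in the Gde2KO libraries. Every Gde2KO library was above every WT library, by little: the means were 37.2 ± 1.32 and 40.9 ± 2.195 FPKM (SD, n = 3 each). The fold was 1.10 (95% interval 0.979 to 1.23), and the adjusted p was 0.882.

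The assembled extent of Gpc1 is part of its level, since a counted base left unassembled adds nothing in that library. Over exons 1 to 8 the scaled levels were 39.0, 40.3 and 41.9 FPKM in WT and 40.6, 43.4 and 39.3 in Gde2KO. These groups overlap. The groups separated over exon 9, at 23.4, 25.8 and 24.7 FPKM in WT and 29.3, 31.4 and 29.2 in Gde2KO. All 6 libraries held the full annotated chain of 9 exons. The last exon, 2448 bases in the annotation, was assembled over 1470, 1564 and 1444 bases in WT and over 1889, 1769 and 1822 in Gde2KO. It was longer in each Gde2KO library than in any WT library. Of the counted bases 91.4%, 94.1% and 90.7% were covered in WT and 100% in each Gde2KO library. Bases assembled in 3 or more libraries are counted, so the last exon past 1564 bases was counted through the 3 Gde2KO libraries alone. Over that stretch their full coverage was set by this rule. Over all genes tested the covered share was higher without overlap in Gde2KO for 4.94% and lower for 3.61%. The deposited FPKM of the Gpc1 transcripts, summed before scaling, were 40.5, 41.0 and 41.9 in WT and 40.2, 43.1 and 39.3 in Gde2KO, and these groups overlap. Over bases assembled in all 6 libraries the log2 difference was 0.03 in place of 0.13 (limma adjusted p = 0.959). Gde2KO replicate 1 split the gene between the annotated chain at 23.5 FPKM and a transcript at 16.6 FPKM that joins a further exon across an unannotated intron. Taking each library's highest single transcript therefore turned the difference to -0.22 (limma adjusted p = 0.931).

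**Figure D2:**
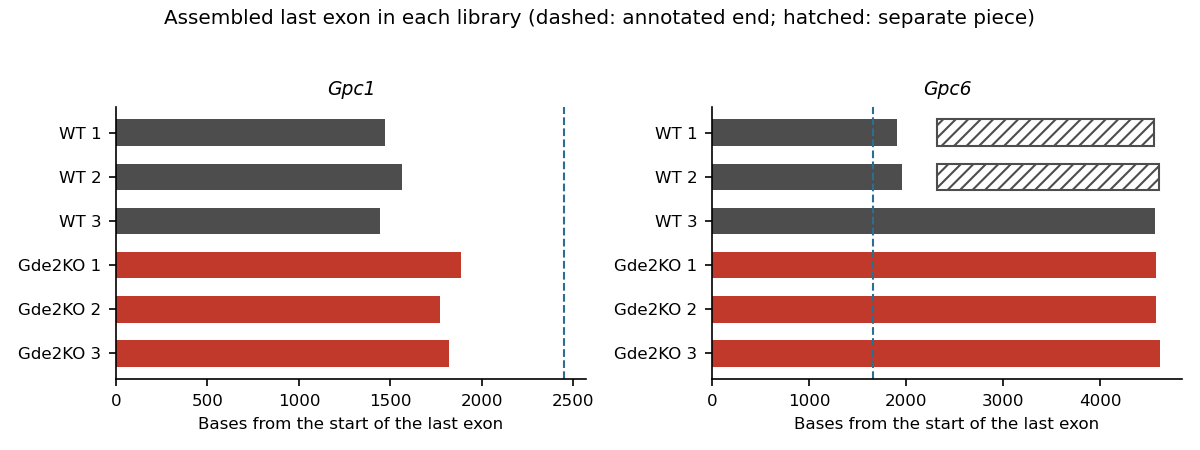
Bases of the last exon of Gpc1 and Gpc6 assembled in each library, counted from the exon's start, with the annotated end dashed and separate downstream pieces hatched. The last exon of Gpc1 ends 1444 to 1564 bases from its start in the WT libraries and 1769 to 1889 in the Gde2KO libraries, and Gpc6 is broken in WT replicates 1 and 2 and continuous in the other 4 libraries.

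Gpc2 (ENSMUSG00000029510.15; chromosome 5, 138273655 to 138280005, minus strand), known from developing neurons, was the lowest of the family. It measured 0.858, 0.631 and 0.839 FPKM in WT libraries and 0.705, 0.906 and 0.913 in Gde2KO libraries. The groups overlap, and with a mean under 1 FPKM the gene was not tested. The value rests on 207 counted bases. Of its 4274 exonic bases 1898 belong to no other gene model on the strand, and of these only the counted ones were assembled in 3 or more libraries. The full chain of 10 exons was assembled in 3 of 6 libraries, and Gde2KO replicates 1 and 3 held the gene as separate pieces. Gde2KO replicate 2 held 4 transcripts, the full chain and further pieces, among them a single exon of 226 bases at 2.96 FPKM. Pieces add up in a plain sum of transcripts, which gave a log2 difference of 1.51 in place of 0.11. The highest sum was that of Gde2KO replicate 2, at 4.15 FPKM as deposited, against 1.83 and 2.05 in Gde2KO replicates 1 and 3.

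Gpc4 and Gpc6 encode glypicans that astrocytes release and that act on synapse formation through neuronal receptors. Gpc4 (ENSMUSG00000031119.4; chromosome X, 52053021 to 52165252, minus strand) measured 2.21, 1.95 and 2.18 FPKM in WT and 2.37, 1.95 and 2.31 in Gde2KO. The lowest library of each group sits at the same level, and the groups overlap. The fold was 1.04 (0.867 to 1.25; adjusted p = 0.918), the value nearest to 1 among the 6 members tested. Gpc4 was assembled as 1 transcript of the full 9-exon chain in each of the 6 libraries. Gpc4 and Gpc3 lie next to each other on the X chromosome, on the same strand and 107173 bases apart.

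Gpc6 (ENSMUSG00000058571.11; chromosome 14, 116925315 to 117976544, plus strand) measured 3.70, 3.20 and 2.70 FPKM in WT and 2.71, 2.90 and 2.52 in Gde2KO. WT replicates 1 and 2 were above all Gde2KO libraries, and WT replicate 3 was among them. The means were 3.20 ± 0.498 and 2.71 ± 0.188 FPKM (SD, n = 3 each), with a fold of 0.858 (0.687 to 1.07; adjusted p = 0.882). Without WT replicate 1 the log2 difference was -0.11 in place of -0.22, and by each library's highest single transcript it was -0.61 (limma adjusted p = 0.931). The latter measure leaves out further transcripts of the gene. As deposited, the Gde2KO libraries held Gpc6 as transcripts at 2.16 and 0.539, 2.18 and 0.713, and 1.60 and 0.935 FPKM. WT replicate 2 held it at 2.93 and 0.660 FPKM, and the other WT libraries held 1 transcript.

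The same 2 WT libraries differed in how the end of Gpc6 was assembled. In WT replicates 1 and 2 the transcript stopped 243 and 292 bases past the annotated end. In WT replicate 3 it ran 2905 bases past it, and in the Gde2KO libraries 2908, 2908 and 2949 bases. The 2 short libraries each held a separate piece on the plus strand 413 and 366 bases further on, 2234 and 2283 bases long, at 2.95 and 2.75 FPKM. The direction of the Gpc6 difference depended on the measure, and FPKM divides by assembled length. Fragments were counted over the whole assembled length of the transcripts overlapping Gpc6, as FPKM times length in kilobases. Before scaling this gave 15.4, 14.2 and 19.2 in WT and 18.8, 20.7 and 20.1 in Gde2KO. The log2 difference, from scaled values, was 0.32 (limma adjusted p = 0.866). With the downstream pieces added, the WT values became 22.0, 20.5 and 19.2, and the Gde2KO values were as before. The log2 difference, again from scaled values, was then -0.02.

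The transcripts of Gpc6 also differed in a cassette exon of 30 bases. It is exon 7 of 10 in the longer annotated transcript (chr14:117892342-117892371) and lies in the coding sequence, and its length is a multiple of 3. The junction is shown with and without it because the intron before it was assembled in 3 Gde2KO libraries and 0 WT libraries. Capitals mark the cassette exon, and 30 bases of the exon on each side are in lower case. The sequences are from the GENCODE vM21 transcripts on GRCm38, plus strand, and span chr14:117888636-117951167 with the introns removed.
Gpc6 with the exon: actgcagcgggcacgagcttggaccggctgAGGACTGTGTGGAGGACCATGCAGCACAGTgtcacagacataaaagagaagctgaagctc
Gpc6 without it: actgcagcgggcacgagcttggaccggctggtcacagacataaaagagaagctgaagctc

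The intron before the 30-base exon was assembled in 3 of 3 Gde2KO libraries and in 0 of 3 WT libraries. By FPKM, transcripts with the exon made up 20.0%, 24.6% and 36.8% of those spanning the intron before it in Gde2KO replicates 1, 2 and 3. These transcripts had 10 exons and stood at 0.539 FPKM (Cufflinks 95% bounds 0.428 to 0.651), 0.713 (0.591 to 0.834) and 0.935 (0.812 to 1.06) as deposited. In WT the exon was not absent. WT replicate 2 held a piece that begins inside it and uses the intron after it, at 0.660 FPKM or 18.4% of the transcripts spanning that intron. The other two WT libraries list no transcript with the exon, which at this level can be a failed assembly. Of 159513 annotated introns assembled in any library, 0.160% were present in all 3 Gde2KO and no WT library, and 0.158% the other way round. Among the members 1 of 70 assembled annotated introns had the first pattern and 0 had the second. The share was not tested between the genotypes.

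**Figure D3:**
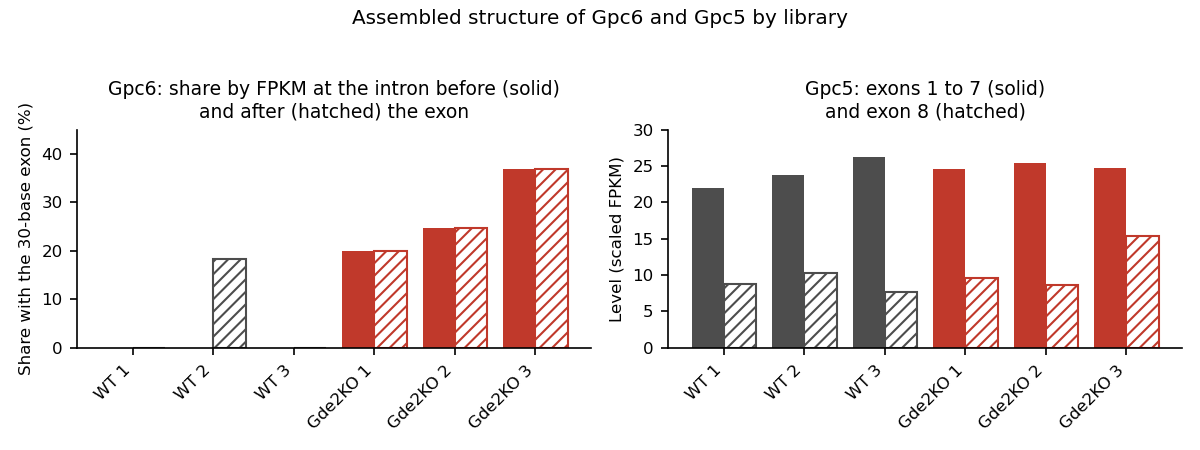
Left, share of Gpc6 transcripts with the 30-base exon by FPKM (%), at the intron before it (solid) and after it (hatched), in each library. Right, level of Gpc5 (scaled FPKM) over exons 1 to 7 (solid) and exon 8 (hatched). The share at the intron before the exon is 0 in the 3 WT libraries and 20.0% to 36.8% in Gde2KO, and exon 8 of Gpc5 is below exons 1 to 7 in all 6 libraries.

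Gpc3 and Gpc5 form the other branch of the family. Gpc5 (ENSMUSG00000022112.14; chromosome 14, 115092215 to 116525179, plus strand) lies 400135 bases before Gpc6 on the same strand, and is an astrocyte gene in the central nervous system. It measured 17.9, 19.7 and 20.3 FPKM in WT and 19.9, 20.3 and 21.9 in Gde2KO. The groups overlap, with WT replicate 1 the lowest library and Gde2KO replicate 3 the highest. The fold was 1.07 (0.941 to 1.22; adjusted p = 0.882). Without WT replicate 1 the log2 difference was 0.05 in place of 0.10, and without Gde2KO replicate 3 it was 0.06. By each library's highest single transcript it was 0.35 (limma adjusted p = 0.931). WT replicate 1 divided exons 1 to 7 between transcripts at 12.6 and 10.2 FPKM as deposited, the first with an unannotated intron. That measure takes only the first of these.

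No library joined the last exon of Gpc5 to the rest of the gene. The intron between exons 7 and 8 of the annotated transcript is 735947 bases long and was assembled in 0 of 6 libraries. The longest intron assembled anywhere in the 6 libraries had 299291 bases, and 192 annotated introns, in 99 of the genes tested, are longer. Gpc6 has introns nearly as long as that, up to 260566 bases, and those were assembled in all 6 libraries. The annotated junction is shown because no deposited transcript holds it. The last 30 bases of exon 7 are in lower case and the first 30 of exon 8 in capitals (coding, GRCm38, plus strand, chr14:115788303-116524309 with the intron removed).
Gpc5 exon 7 to exon 8: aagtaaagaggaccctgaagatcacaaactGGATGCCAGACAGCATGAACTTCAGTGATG

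Exon 8 of Gpc5 was therefore quantified as a transcript of its own. The WT libraries had 21.9, 23.8 and 26.2 FPKM over exons 1 to 7, and the Gde2KO libraries 24.6, 25.4 and 24.7. Over exon 8 the WT libraries had 8.77, 10.3 and 7.65 FPKM, and the Gde2KO libraries 9.53, 8.58 and 15.4. It was lower than the exons before it in every library, at 29.1% to 43.4% of them in 5 libraries and 62.3% in Gde2KO replicate 3. That library also gave the highest Gpc5 level, and the gene's level as used here averages over both pieces.

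Gpc3 (ENSMUSG00000055653.13; chromosome X, 52272426 to 52613950, minus strand) encodes the glypican known as a brake on growth and on hedgehog signalling. It measured 3.33, 3.43 and 4.31 FPKM in WT and 2.001, 4.33 and 4.19 in Gde2KO. Gde2KO replicate 1 was the lowest of the 6 libraries, and the other Gde2KO libraries lay at the upper end of WT. The means were 3.69 ± 0.540 and 3.51 ± 1.30 FPKM (SD, n = 3 each), with a fold of 0.908 (0.527 to 1.57; adjusted p = 0.933), the widest interval of the members. Without Gde2KO replicate 1 the log2 difference turned from -0.14 to 0.21 (limma adjusted p = 0.809). Each library held 1 transcript with the full chain of 8 exons, so assembly did not divide the gene.

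Markers of fibroblasts and meninges were low in the library where Gpc3 was low. Of 12 listed, 11 were tested and Slc22a6 was listed at 0 in every library over bases assembled in any. Gde2KO replicate 1 was the lowest library for 8 of the 11. Their summed level was 99.0 to 127 FPKM in WT, 53.0 in Gde2KO replicate 1, and 105 and 107 in the others, and Col1a1 was at 4.85 FPKM there against 12.8 to 17.9 elsewhere. The mean log2 deviation of the list from WT was -1.02 in this library and -0.15 in each of the other two. Schwann cell and nerve root markers stood at -0.92 in it, against 0.33 and 0.30. Gpc4, the neighbour of Gpc3 on the X chromosome, was highest in that same library, at 2.37 FPKM. The part of these markers, and of the sex-linked difference, in the Gpc3 value was not tested.

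**Figure D4:**
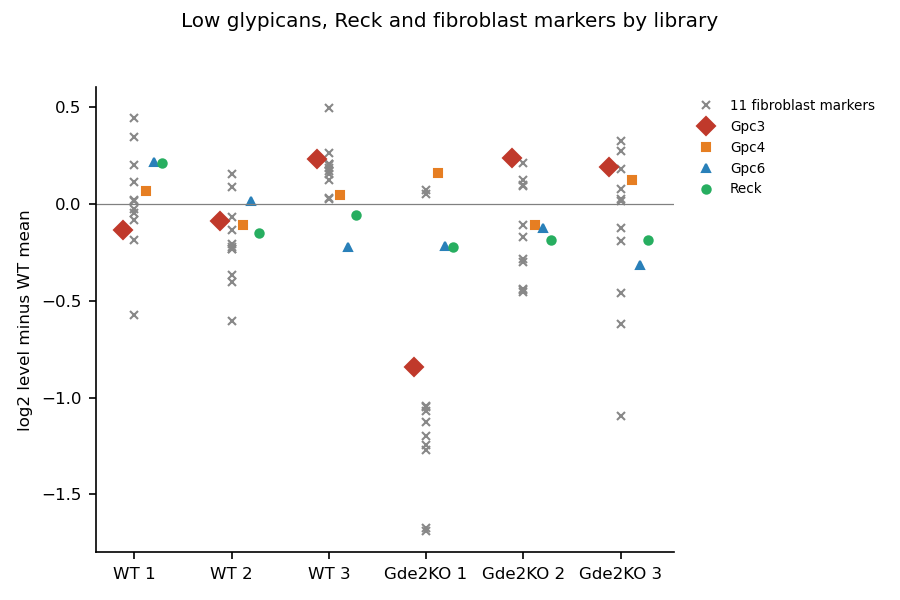
log2 level minus the WT mean, by library, for Gpc3, Gpc4, Gpc6 and Reck and for the 11 tested fibroblast and meningeal markers (crosses). Gpc3 and most markers are low in Gde2KO replicate 1, where Gpc4 is at its highest.

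Reck (ENSMUSG00000028476.13; chromosome 4, 43875530 to 43944806, plus strand) measured 2.76, 2.13 and 2.28 FPKM in WT and 2.02, 2.08 and 2.07 in Gde2KO. Every Gde2KO library was below every WT library, the nearest pair being 2.13 and 2.08. The means were 2.39 ± 0.329 and 2.06 ± 0.0320 FPKM (SD, n = 3 each), with a fold of 0.870 (0.719 to 1.05; adjusted p = 0.882). The log2 difference was below 0 under all 22 alternatives run for Reck, from -0.28 to -0.09, and none passed the test. It was -0.20 with all libraries and -0.10 without WT replicate 1. Mature oligodendrocyte markers and the sum of dorsal horn markers were low in that library, and their part in the value was not tested. That library held Reck in 2 pieces, exons 1 to 10 at 2.35 FPKM and exons 11 to 21 at 3.12 FPKM as deposited. Gde2KO replicate 1 held it in 3 pieces, at 1.25, 1.36 and 2.11 FPKM, and the full chain of 21 exons was assembled in the other 4 libraries. The separation did not hold along the whole gene. Over exon 2 the scaled levels were 2.27, 1.35 and 2.38 FPKM in WT and 1.26, 2.08 and 2.08 in Gde2KO. Over exon 9 they were 2.27, 2.24 and 2.38 in WT and 2.64, 2.08 and 2.08 in Gde2KO. Both overlap, while exon 17 separated, at 3.01, 2.24 and 2.38 against 1.26, 2.08 and 2.08. The deposited sums, in which pieces add up, were 5.48, 2.28 and 2.38 in WT and 4.72, 2.06 and 2.08 in Gde2KO. These sums overlap.

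The genes that build and edit heparan sulfate, the sugar chain that glypicans carry, gave no call. Of the chain synthesis genes 11 of 12 were tested, 6 above and 5 below 0, with a median log2 difference of 0.02. B3galt6, a linker enzyme, had no counted base. Over bases assembled in any library it was above 0 in 3 of 6, at 0.121 to 0.525 FPKM. The smallest p-values belonged to Pxylp1 (fold 1.14, 95% interval 0.974 to 1.33), a phosphatase of the linker, Extl1 (1.11, 0.925 to 1.33), a glycosyltransferase, and Fam20b (0.877, 0.692 to 1.11), a kinase of the linker. Fam20b was at 19.2 FPKM in Gde2KO replicate 1 and at 26.4 to 27.9 in the other 5. Of the modification genes 16 of 20 were tested, 3 above and 13 below 0, with a median of -0.06 against 0.00 over all genes. In this list Hs2st1, a sulfotransferase, had a fold of 1.09 (0.986 to 1.21) with Gde2KO above WT without overlap, Ndst3 0.883 (0.724 to 1.08) and Glce, the epimerase, 0.873 (0.696 to 1.09). The heparanase genes Hpse and Hpse2 and the sulfotransferase gene Hs3st6 had no counted base and were at 0 in every library over bases assembled in any. Across both lists the limma adjusted p was at least 0.882.

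**Figure D5:**
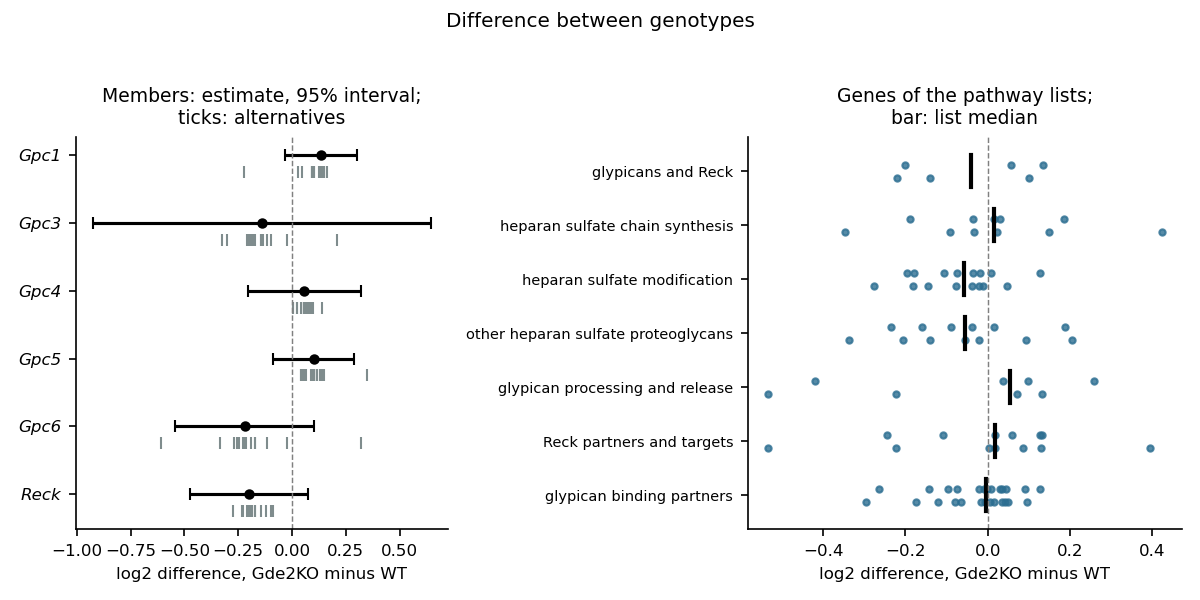
Left, log2 difference (Gde2KO minus WT) of the 6 tested members with its 95% interval, and the alternatives as ticks. Right, the same difference for each tested gene of 7 lists, with the list median as a bar. All 6 intervals on the left include 0, and the medians on the right lie between -0.06 and 0.05.

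The other proteoglycans and the proteins that cut or bind glypicans also gave no call. All 13 other heparan sulfate proteoglycan genes were tested, 4 above and 9 below 0, with a median of -0.05. Cd44, a hyaluronan receptor, had a fold of 0.849 (0.680 to 1.06), the syndecan gene Sdc4 1.15 (0.896 to 1.48) and Spock3, a testican, 1.14 (0.899 to 1.44). Among the genes for processing and release, 8 of 10 were tested, 5 above and 3 below 0, with a median of 0.05. Their smallest p-values belonged to the sheddase gene Adam10 (fold 1.10, 0.983 to 1.22) and the metalloprotease genes Mmp2 (0.857, 0.692 to 1.06) and Mmp14 (0.690, 0.402 to 1.19), which are also targets of Reck. Pcsk7, a convertase, had no counted base. Over bases assembled in any library it was at 4.93 FPKM in WT replicate 1, 5.45 in Gde2KO replicate 3 and 0 in the other 4, and such a 0 can be a failed assembly.

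Reck's partners and targets came to 13 tested of 15, 9 above and 4 below 0, with a median of 0.02. Timp4, a tissue inhibitor of metalloproteases, measured 27.9, 37.3 and 31.6 FPKM in WT and 41.1, 42.6 and 42.7 in Gde2KO. Every Gde2KO library was above every WT library, with a fold of 1.31 (1.08 to 1.60), and the limma adjusted p was 0.882. Mmp7 and Timp1 had no counted base and were at 0 in every library by the wider measure.

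Of the 26 genes for glypican binding partners, all were tested, 12 above and 14 below 0, with a median of 0.00 (limma adjusted p at least 0.882). Fgfr2, a fibroblast growth factor receptor, measured 27.9, 29.6 and 27.7 FPKM in WT and 24.7, 23.5 and 21.3 in Gde2KO. Its groups did not overlap, and its fold was 0.815 (0.715 to 0.929). Nptx1, a neuronal pentraxin, had a fold of 0.887 (0.788 to 0.998), and Unc5a, a netrin receptor, 0.833 (0.638 to 1.09). Of the other GDE family genes, Gdpd2 had a fold of 0.931 (0.751 to 1.15) and Gde1 0.949 (0.787 to 1.14), and neither Gdpd3 nor Gdpd4 had a counted base. Over bases assembled in any library Gdpd4 was at 0 throughout and Gdpd3 was at 0.359 FPKM in Gde2KO replicate 3 and 0 elsewhere.

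Genes with the most similar profile over the 6 libraries were looked up for each tested member by Pearson's r of the log2 levels, among 8040 genes with a mean of at least 5 FPKM. With 6 points chosen from so many, high values are found for any gene, and they are given as a description. For Gpc5 the nearest were Ptpdc1 (r = 0.999), the astrocyte connexin gene Gjb6 (0.996) and Sdc4 (0.995). Gjb6 ran from 28.5 FPKM in WT replicate 1 to 50.7 in Gde2KO replicate 3, the same lowest and highest libraries as Gpc5. For Gpc6 they were Usp21 (0.987), the fibronectin gene Fn1 (0.982) and Clic1 (0.982). For Gpc3 they were Snx11 (0.985), Slc35b2 (0.982) and Odr4 (0.981), each lowest in Gde2KO replicate 1. For Gpc1 they were Btbd2 (0.994), Stard10 (0.982) and Ecsit (0.982), for Gpc4 Stard3 (0.988), Rb1cc1 (0.988) and Ppp1cb (0.987), and for Reck Hap1 (0.992), Wbp1 (0.981) and Smarcd1 (0.979).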

How the data were processed

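Poly-A RNA sequencing libraries of 3 WT and 3 Gde2KO cords were analysed. The submitters' processing notes name FastQC, TopHat2 (2.1.1), Cufflinks (2.2.1) and Cuffdiff (2.2.1) as tools, and mm10 as the genome build. Each deposited file is the authors' Cufflinks assembly of 1 library, whose FPKM values and confidence bounds per transcript were made by the authors. Read counts were not used here, so depth was taken from the coverage values as a relative depth.

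Transcripts were matched to GENCODE vM21 (GRCm38) by exon overlap on the same strand. Those without a strand were counted only at bases with no opposite exon. The level of a gene is the FPKM summed over transcripts of at least 200 bases at each counted base and averaged over these, the bases of that gene alone assembled in at least 3 libraries. Levels were scaled by median of ratios. The test covered genes with 200 or more counted bases whose mean was 1 FPKM or more, and used limma 3.58.1 in R 4.3.3 (trend, robust, two-sided) on log2(FPKM + 0.1), with Benjamini-Hochberg adjustment over all genes and a threshold of 0.05. Folds are on that scale, which understates changes of low genes. An exact permutation test of 3 against 3 libraries cannot go below p = 0.10 and is not given. The code was tested on simulated data. The library labels give no batch that differs between samples.

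The members and the gene lists were chosen with earlier results of these data known. Named are all members, Gdpd5, the 3 genes of smallest p in each list, the 3 genes most like each member, markers and list genes without a counted base (given over bases assembled in any library), and a fixed set of marker and sex-linked genes. Alternatives covered pseudocounts, filters, scaling, the gene level, the replicate block and each library left out. Fragments with downstream pieces were added after seeing the data.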

Additional observations from a re-analysis of the deposited data

How the results depend on the processing

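No tested member passed the threshold under any alternative run. Among the tested members the log2 difference changed sign for Gpc6 by fragments per gene (0.32), for Gpc1 by the highest single transcript (-0.22) and for Gpc3 without Gde2KO replicate 1 (0.21). By the highest single transcript Gpc6 moved to -0.61 and Gpc5 to 0.35, with no change of sign. That measure leaves out part of a gene that a library divides between transcripts, as given above for Gpc1, Gpc5 and Gpc6. For Gpc2, with no test, it moved from 0.11 to 1.51 by the plain sum of transcripts, 0.36 by fragments per gene with or without downstream pieces, 0.87 by the highest single transcript and 0.43 over bases assembled in any library. Leaving out 1 library at a time gave 0.09 to 0.16 for Gpc1, -0.02 to 0.22 for Gpc2, -0.33 to 0.21 for Gpc3, 0.00 to 0.14 for Gpc4, 0.05 to 0.14 for Gpc5, -0.33 to -0.11 for Gpc6 and -0.28 to -0.10 for Reck. The number of all genes that passed moved from 15 to 4 with a pseudocount of 0.01, 4 over bases assembled in all 6 libraries, 4 with zeros as missing and 1 with a mean of at least 5 FPKM. With 1 library left out it ran from 10 to 26, the 26 without WT replicate 2, with 25 without Gde2KO replicate 3 and 24 without Gde2KO replicate 2. With the replicate block it was 2. Libraries with the same number did not deviate together (correlations of 0.04, -0.01 and 0.04). These correlations cannot exclude that such libraries were paired. The block changed no call among the members. The cause of these shifts was not tested beyond what the report gives on assembled extent. Assembled extent limits these values, since Cufflinks spreads a transcript's FPKM evenly along it.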
